A study of Mus musculus with 6 samples.

Results

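Intermediate progenitors are the dividing daughters of radial glia, the neural stem cells of the embryonic cortex. They leave the ventricular surface, settle in the subventricular zone and divide mostly to produce excitatory neurons. In this lineage the transcription factor PAX6 marks radial glia, EOMES (also called TBR2) marks intermediate progenitors and TBR1 marks the young deep-layer neurons that follow.

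The genes described here are 8 marker genes of intermediate progenitors, namely Eomes, Insm1, Gadd45g, Sstr2, Mfap4, Rhbdl3, Chd7 and Mxd3. They were taken by symbol from the 24041 genes of the deposited table, where all 8 were present. All 8 also passed the filter on low counts, which left 14451 genes for testing. The libraries measured messenger RNA of mouse cerebral cortex cells sorted for green fluorescent protein (GFP) after electroporation, the delivery of plasmid DNA by electric pulses. In one group (3 libraries) the cells had received GFP with mutant PRPF6, and in the other (3 libraries) GFP with wild-type PRPF6. PRPF6 belongs to the U4/U6.U5 tri-snRNP, a building block of the spliceosome. All libraries carried both GFP and a PRPF6 plasmid, so an effect of the mutant protein and an effect of the wild-type protein cannot be told apart. The mutation, the promoter of the plasmids, the age and strain of the animals and whether libraries came from separate animals are not given in the labels. P-values therefore measure library-to-library spread alone, part of which may be technical.

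The libraries held 45115122 to 57475218 expected counts with mutant PRPF6 and 47564897 to 60600617 with wild-type PRPF6. Values are given as CPM, which divides counts by the TMM-adjusted library total and puts all libraries on 1 scale. A single count equals 0.0164 to 0.0228 CPM, depending on the library. Prpf6 itself was at 134 ± 10.01 CPM with mutant and 141 ± 22.6 CPM with wild-type PRPF6 (SD, n = 3 each). The labels do not give the species of the plasmid gene, so this value does not check the labels. Libraries stood apart in genes of other cells. Summed CPM of 6 red blood cell genes was 63.7 to 1209 with mutant PRPF6, and with wild-type PRPF6 it was 744 and 2219.9 in replicates 1 and 2 but 13148 in replicate 3. Wild-type replicate 3 also held the highest sums of 6 meningeal fibroblast genes (1635 CPM, against 25.1 to 178 CPM in the other libraries) and of 5 endothelial genes (100.1 CPM, against 0.52 to 41.8 CPM). The sum of 6 microglia genes was highest in mutant replicate 2, at 611 CPM, against 20.6 to 233 CPM in the other libraries. The sum of 6 interneuron genes was 727, 384 and 290 CPM in mutant replicates 1, 2 and 3, against 139.6, 394 and 846 CPM in wild-type replicates 1, 2 and 3. Of these lists only red blood cell and endothelial genes had members with no count: Hbb-bs, a beta-globin gene named after its values were seen, in mutant replicate 3, and 1 endothelial gene each in mutant replicate 3 and wild-type replicate 1.

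For no member did the difference between mutant and wild-type PRPF6 pass the test against the spread between libraries. Of the 8 members, 0 passed edgeR's quasi-likelihood test after Benjamini-Hochberg adjustment over all tested genes (adjusted p = 1.00 for each), as did 0 of the 14451 genes (0.0%). None of the 8 had an unadjusted p under 0.05, against 3.38% of all tested genes. DESeq2 also called 0 members, and it called 6 genes in all, 0.104% of those to which it gave an adjusted p. In 0 of the 8 did the mutant libraries all lie on one side of the wild-type libraries, against 9.14% of all tested genes. Fitted differences were above 0 in 5 members and below 0 in 3, with a median log2 difference of 0.11, while 49.8% of all tested genes were above 0 with a median of −0.0013. The count of members above 0 was 7 without mutant replicate 1 (median 0.25) and 2 without mutant replicate 3 (median −0.18). It was 7 without wild-type replicate 1 (median 0.17), 4 without wild-type replicate 3 (median −0.027) and 6 without both mutant replicate 1 and wild-type replicate 3 (median 0.060). It was 5 without mutant replicate 2 or wild-type replicate 2, with medians of 0.23 and 0.19.

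**Figure D1:**
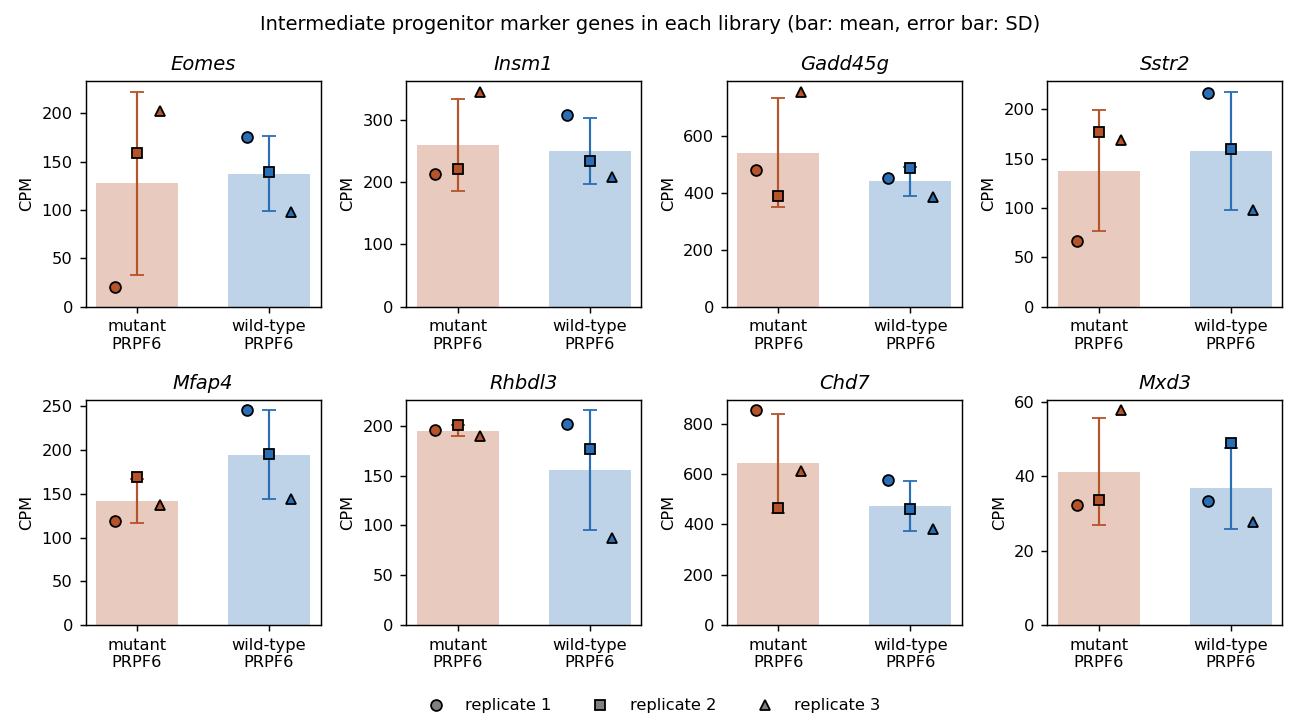
CPM of the 8 marker genes in each library, mutant PRPF6 left and wild-type PRPF6 right, with bars for group means, error bars for SD (n = 3) and a symbol for each replicate number. The groups overlap for every gene, and Eomes in mutant replicate 1 lies at 20.6 CPM, below the 97.4 to 202 CPM of the other 5 libraries.

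Eomes, the T-box transcription factor that defines intermediate progenitors, was at 20.6, 159 and 202 CPM in mutant replicates 1, 2 and 3, against 175, 140 and 97.4 CPM in wild-type replicates 1, 2 and 3. A single mutant library was far below all the others, while the other mutant libraries lay within or above the wild-type range. The gene lies on chromosome 9, 118478212 to 118486132, plus strand (GRCm38, GENCODE M21). The 20.6 CPM rest on 1195 counts, and each other library had 4875 to 8871. In mutant replicate 1 Eomes was 7.74-fold below the median of the other 5 libraries. Ranked by that drop among 8741 genes averaging at least 4 on the log2 CPM scale, Eomes was number 24 from the lowest in this library. The group means were 127 ± 94.96 CPM with mutant and 137 ± 38.9 CPM with wild-type PRPF6 (SD, n = 3 each). The fitted log2 difference was −0.11 (95% confidence interval −1.63 to 1.41). Without mutant replicate 1 it was 0.40 (unadjusted p = 0.177, edgeR) and without wild-type replicate 1 it was 0.10, so its sign depended on single libraries.

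Sstr2, a receptor for the neuropeptide somatostatin, was at 66.9, 178 and 169 CPM in mutant replicates 1, 2 and 3, against 217, 159.7 and 97.7 CPM in wild-type replicates 1, 2 and 3. As for Eomes, mutant replicate 1 was the lowest library and wild-type replicate 3 the next lowest. Sstr2 lies on chromosome 11, 113619342 to 113626028. In mutant replicate 1 it was 2.52-fold below the median of the other libraries, a smaller gap than that of Eomes. The log2 difference between the groups was −0.20 (95% confidence interval −1.12 to 0.72), and 0.13 without mutant replicate 1.

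The other nuclear factors did not share the low value in mutant replicate 1. Insm1, a zinc-finger factor that promotes the formation of basal progenitors in the mouse cortex, was at 214, 221 and 346 CPM in mutant replicates 1, 2 and 3, against 309, 234 and 208 CPM in wild-type replicates 1, 2 and 3. Its lowest library was wild-type replicate 3 and its highest mutant replicate 3. The group means were close, 260.3 ± 74.3 CPM with mutant and 250.5 ± 52.6 CPM with wild-type PRPF6 (SD, n = 3 each), and the log2 difference was 0.056 (95% confidence interval −0.49 to 0.60). Insm1 is a single exon on chromosome 2, 146221921 to 146225020.

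Chd7, an ATP-dependent chromatin remodeller, was at 853, 464 and 609.7 CPM in mutant replicates 1, 2 and 3, against 576, 460.4 and 381 CPM in wild-type replicates 1, 2 and 3. Here mutant replicate 1 was the highest library, the opposite of its place for Eomes and Sstr2. Chd7 had the highest fitted difference of the 8, 0.44 (95% confidence interval −0.12 to 1.01; unadjusted p = 0.109, edgeR). With 1 library left out it ranged from 0.18 without mutant replicate 1 to 0.63 without mutant replicate 2 (unadjusted p = 0.0281, adjusted p = 0.706, edgeR). It was 0.055 without both mutant replicate 1 and wild-type replicate 3. The gene spans chromosome 4, 8690406 to 8867659.

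Mxd3, a repressor of the MYC and MAX network that is expressed in dividing progenitors, was at 32.2, 33.7 and 57.7 CPM in mutant replicates 1, 2 and 3, against 33.4, 48.99 and 27.7 CPM in wild-type replicates 1, 2 and 3. Its highest libraries were mutant replicate 3 and wild-type replicate 2, with the rest at similar levels. The log2 difference was 0.17 (95% confidence interval −0.57 to 0.91). Mxd3 (chromosome 13, 55325168 to 55329823, minus strand) was the 1 member whose expected counts were not whole in all 6 libraries, which means that some of its reads had been divided between genes. Its exons overlap those of Prelid1 in the annotation.

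Gadd45g, a growth-arrest and DNA-damage-inducible protein made by progenitors that are committed to neurogenesis, was at 480, 388 and 757 CPM in mutant replicates 1, 2 and 3, against 453, 486 and 386 CPM in wild-type replicates 1, 2 and 3. One mutant library stood above the others, and the lowest values of both groups were nearly equal. The group means were 541 ± 192 CPM with mutant and 442 ± 51.2 CPM with wild-type PRPF6 (SD, n = 3 each). The log2 difference was 0.29 (95% confidence interval −0.27 to 0.86), and −0.027 without mutant replicate 3. Gadd45g lies on chromosome 13, 51846678 to 51848468.

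Rhbdl3, a rhomboid-like membrane protein, was at 196, 200.4 and 189 CPM in mutant replicates 1, 2 and 3, against 202, 177 and 87.6 CPM in wild-type replicates 1, 2 and 3. It was the steadiest member among the mutant libraries, with 1.06-fold between the lowest and the highest, and only wild-type replicate 3 was low. In that library Rhbdl3 was 2.23-fold below the median of the others. The log2 difference was 0.33 (95% confidence interval −0.32 to 0.98), with 0.047 when wild-type replicate 3 and 0.56 when wild-type replicate 1 was left out. The gene lies on chromosome 11, 80300912 to 80355955.

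Mfap4, a glycoprotein of extracellular microfibrils, was at 119, 169 and 137 CPM in mutant replicates 1, 2 and 3, against 245, 195 and 144 CPM in wild-type replicates 1, 2 and 3. Only mutant replicate 2 lay inside the wild-type range, and the other mutant libraries lay below it. Mfap4 had the lowest fitted difference, −0.46 (95% confidence interval −0.98 to 0.06; unadjusted p = 0.0757, edgeR). It was below 0 with each library left out in turn, from −0.63 without wild-type replicate 3 to −0.26 without wild-type replicate 1. Leaving out wild-type replicate 3 gave an unadjusted p of 0.0201 (adjusted p = 1.00), and leaving out mutant replicate 2 gave 0.0440 (adjusted p = 0.717). Wild-type replicate 3, the library with the most meningeal fibroblast RNA, had the lowest wild-type value of this matrix gene, and the part of those cells in the Mfap4 level was not tested. Mfap4 (chromosome 11, 61485431 to 61488900) overlaps exons of Mapk7, and Eomes overlaps exons of Gm33460. All expected counts of Mfap4 and Eomes were whole.

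**Figure D2:**
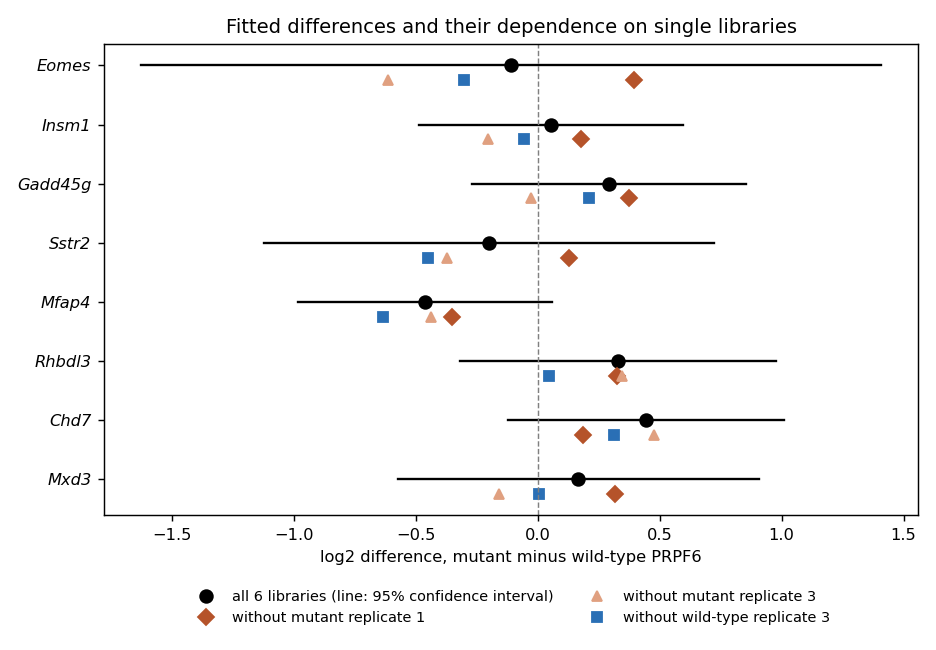
Fitted log2 differences, mutant minus wild-type PRPF6, for the 8 marker genes with all 6 libraries (black, with 95% confidence intervals) and with mutant replicate 1, mutant replicate 3 or wild-type replicate 3 left out (coloured symbols). Every interval includes 0, and Eomes lies at 0.40 without mutant replicate 1 and at −0.61 without mutant replicate 3.

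Levels of the members were compared per kilobase of annotated exon, averaged over the 6 libraries. Gadd45g was highest at 419 CPM per kb and lay above the next gene in 6 of 6 libraries. Mfap4, Insm1 and Sstr2 followed at 87.5, 82.4 and 69.1 CPM per kb, and each stood above the next of them in only 4 of 6 libraries. Chd7 (40.4 CPM per kb) and Rhbdl3 (37.0 CPM per kb) changed places between libraries, with Chd7 above in 3 of 6. Eomes was at 31.9 CPM per kb, ranging over 4.95 to 48.7, and lay below Rhbdl3 in 4 of 6 libraries. Mxd3 was lowest at 16.4 CPM per kb and was below Eomes in 5 of 6 libraries, the exception being mutant replicate 1. Neighbouring members from Mfap4 to Eomes were therefore not in a fixed order across the libraries.

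The members varied unequally between libraries. The SD of log2 CPM over the 6 libraries was 1.22 for Eomes and 0.64 for Sstr2, against 0.31 to 0.47 for the other 6 members and a median of 0.29 over those 8741 genes. Of those genes 99.1% varied less than Eomes and 91.97% less than Sstr2. Wild-type replicate 3 held the lowest value of 5 members and mutant replicate 1 that of the other 3, namely Eomes, Sstr2 and Mfap4. Mutant replicate 3 held the highest value of 4 members and wild-type replicate 1 of 3. The closest pair by root mean square difference of centred log2 CPM profiles was Gadd45g and Mxd3 (0.19), followed by Insm1 and Gadd45g (0.21). Eomes was nearest to Sstr2 (0.63) and farthest from Chd7 (1.37), the widest gap of any pair.

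Sequence upstream of the start site is shown for the closest pair, Gadd45g and Mxd3, and for Eomes and Sstr2, which with Mfap4 had their lowest value in mutant replicate 1. These 4 were the members matched in RefSeq's promoter table (GRCm38.p6). The 100 bases before the start in that table are given 5′ to 3′ on the gene's strand. Capitals mark an E-box, the kind of site that neurogenic bHLH factors such as NEUROG2 bind. These RefSeq starts differ from the starts of the GENCODE genes whose coordinates are given above. For Mxd3, on the minus strand, the GENCODE gene begins at 55329823, so most of the bases shown lie inside it.
Eomes (chr9:118478089-118478188, plus strand): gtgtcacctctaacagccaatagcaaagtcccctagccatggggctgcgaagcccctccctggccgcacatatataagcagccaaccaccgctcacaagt
Sstr2 (chr11:113619227-113619326, plus strand): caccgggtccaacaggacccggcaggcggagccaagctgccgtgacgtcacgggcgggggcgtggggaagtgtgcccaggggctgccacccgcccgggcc
Gadd45g (chr13:51846575-51846674, plus strand): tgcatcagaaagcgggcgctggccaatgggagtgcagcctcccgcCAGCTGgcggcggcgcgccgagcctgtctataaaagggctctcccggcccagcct
Mxd3 (chr13:55329732-55329831, minus strand): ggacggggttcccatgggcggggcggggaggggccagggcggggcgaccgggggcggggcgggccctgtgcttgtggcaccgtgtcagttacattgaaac

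Letters were searched on both strands of each window of 300 bases, from 250 before to 50 after the RefSeq start. The E-box CAGCTG was present in 1 of the 4 windows, beginning 55 bases upstream of the start of Gadd45g, and in 16.3% of 32851 promoter windows. The E-box CAGATG was in 0 of 4 and in 17.2% of all windows, and TCACAC, a core of T-box elements, in 0 of 4 and in 14.5%. GC content of the 100 bases shown was 57.0% for Eomes, 77.0% for Sstr2, 69.0% for Gadd45g and 74.0% for Mxd3.

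The genes most like Eomes over the 6 libraries, among 8733 candidates, were 9630028B13Rik, Itpk1, an inositol phosphate kinase, and Tbc1d1, a regulator of Rab GTPases. Their root mean square differences to the Eomes profile were 0.23, 0.24 and 0.27. 9630028B13Rik was at 8.93, 59.9 and 68.6 CPM in mutant replicates 1, 2 and 3, against 73.7, 42.7 and 27.3 CPM in wild-type replicates 1, 2 and 3. Itpk1 was at 15.5 CPM in mutant replicate 1 and at 82.0 to 143 CPM elsewhere, while Tbc1d1 was at 10.6 CPM in it, against 40.95 to 62.0 CPM in the rest. All of them share with Eomes the single low library, which follows from choosing them by likeness to its profile.

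Mutant replicate 1 was also the lowest library for 5 of 8 neuronal genes and for 5 of 8 cell division genes. Of the other 3 neuronal genes, Dcx and Mapt were lowest in mutant replicate 3. Tubb3, at 727 CPM in mutant replicate 1, was lowest in wild-type replicate 1. These 3 were named after their values were seen. Tbr1 was at 61.6, 188 and 143 CPM in mutant replicates 1, 2 and 3, against 265, 200.1 and 231 CPM in wild-type replicates 1, 2 and 3. Neurod2 and Neurod6, bHLH factors of cortical excitatory neurons named after their values were seen, were 3.80-fold and 12.04-fold below the median of the other libraries in mutant replicate 1. Tfap2c, an AP-2 factor of cortical progenitors also named after its values were seen, was 2.92-fold below. The interneuron genes did not follow, since their sum in that library was the second highest of the 6. Pax6 lay 0.052 log2 units above the median of the other libraries, and Neurog2, a proneural bHLH factor named after its values were seen, 1.03-fold below it. The sum of 10 radial glia genes was highest in mutant replicate 1, at 4570 CPM, against 1819 to 3832 CPM in the other libraries. Fabp7, named after its values were seen, made up 1535 CPM of that sum, against 343 to 578 CPM in the other libraries. Fewer cells of a type and less RNA per cell cannot be told apart in such bulk libraries, and the part of the cell mix in the low Eomes value was not tested.

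**Figure D3:**
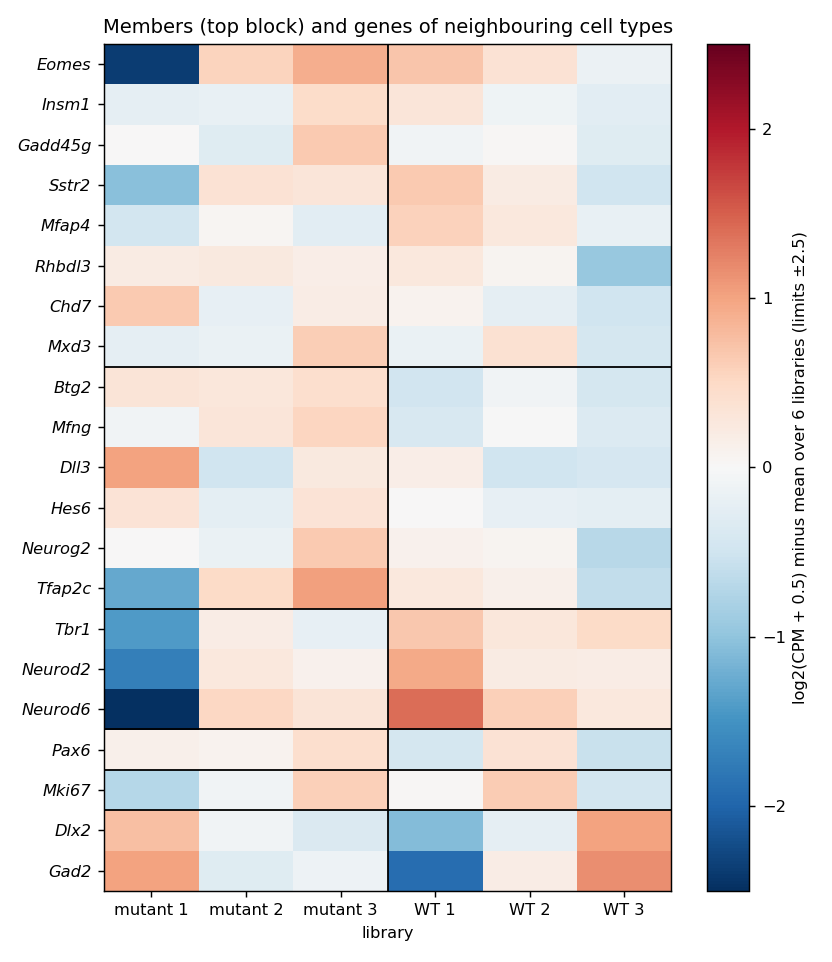
log2(CPM + 0.5) of each gene minus its mean over the 6 libraries (blue low, red high), for the 8 marker genes in the top block and for other neurogenic genes, neuronal genes, Pax6, Mki67 and the interneuron genes Dlx2 and Gad2 below, with mutant libraries left of wild-type ones. In mutant replicate 1 Eomes, Sstr2, Tfap2c, Tbr1, Neurod2 and Neurod6 are low and Chd7, Dll3, Dlx2 and Gad2 are high.

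The balance of Eomes against the factors before and after it in the lineage was taken within each library, which is free of scaling between libraries. Eomes minus Pax6, on the log2 CPM scale, was −2.73, 0.27 and 0.28 in mutant replicates 1, 2 and 3, against 0.93, −0.20 and 0.20 in wild-type replicates 1, 2 and 3. The difference of the group means was −1.03 (two-sided exact permutation p = 0.60, also after adjustment over the 2 balances) and became −0.032 without mutant replicate 1. Eomes minus Tbr1 was −1.58, −0.24 and 0.50 in mutant replicates 1, 2 and 3, against −0.60, −0.52 and −1.25 in wild-type replicates 1, 2 and 3. Its difference was 0.35 (two-sided exact permutation p = 0.60) and 0.92 without mutant replicate 1, where every remaining mutant library lay above every wild-type library (exact p = 0.20, the smallest that 2 against 3 allow). With 3 libraries against 3 the exact test cannot go below 0.10. Tbr1 itself was lower in every mutant library, replicate 1 included, than in every wild-type library. Groups did not overlap, in either direction, for 9.14% of all tested genes. The log2 difference of Tbr1 was −0.82 (unadjusted p = 0.0499, edgeR), which did not pass the test over all genes. How much of the balance came from Tbr1 was not tested.

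**Figure D4:**
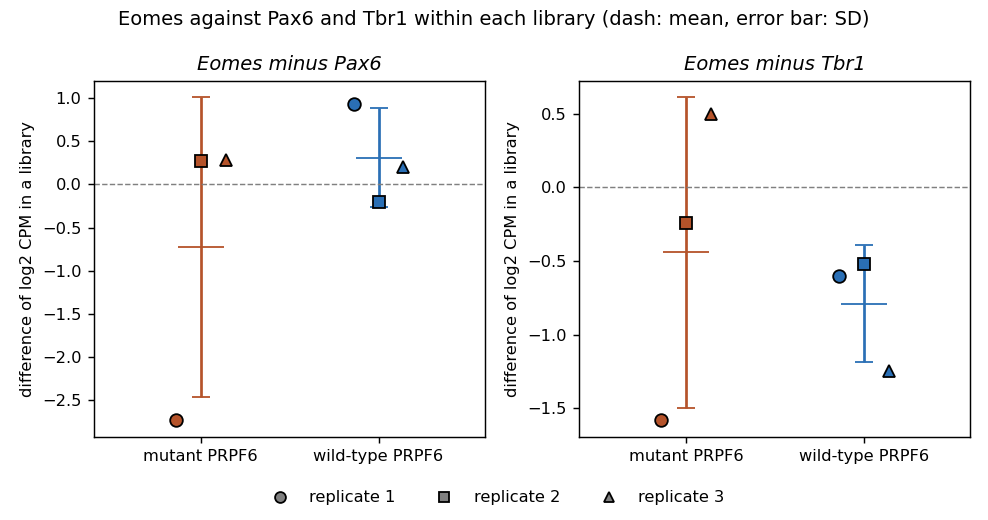
Difference of log2 CPM between Eomes and Pax6 (left panel) and between Eomes and Tbr1 (right panel) in each library, mutant PRPF6 left and wild-type PRPF6 right, with dashes for group means, error bars for SD (n = 3) and a symbol for each replicate number. Mutant replicate 1 is lowest in both panels, at −2.73 and −1.58.

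Beyond the members, 12 further genes of intermediate progenitors and of the step to neurons were examined, and again 0 passed the test over all genes. Fitted differences were above 0 in 10 of the 12, with a median log2 difference of 0.37, and the count was 8 without mutant replicate 3 (median 0.091) and 9 without wild-type replicate 3 (median 0.21). At an unadjusted p under 0.05 (edgeR) stood 2 of them, Btg2 and Mfng, both with higher fitted means in mutant PRPF6 libraries. Of all tested genes 2.18% were under 0.05 and higher, and 3.38% were under 0.05 in either direction. The count among the 12 was 1 to 3 with a library left out in turn. Mfng had an unadjusted p under 0.05 in 2 of those 6 fits and up to 0.149 in the others (edgeR). In 1 of the 12, Btg2, the lowest mutant library exceeded the highest wild-type one, against 4.6% of all tested genes. Groups did not overlap in either direction for 9.14% of all tested genes.

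Btg2, an antiproliferative gene of progenitors in their neurogenic divisions, was at 232, 223 and 246 CPM in mutant replicates 1, 2 and 3, against 132, 173 and 135 CPM in wild-type replicates 1, 2 and 3. The mutant libraries were close together and mutant replicate 1 was among them, unlike for Eomes. With each library left out in turn its log2 difference stayed between 0.60 and 0.80. Mfng, a fringe glycosyltransferase acting on Notch, was at 97.3, 128 and 152 CPM in mutant replicates 1, 2 and 3, against 78.9, 104 and 81.9 CPM in wild-type replicates 1, 2 and 3. Dll3, a Notch ligand family member, was at 259, 91.7 and 154 CPM in mutant replicates 1, 2 and 3, against 145, 91.0 and 96.8 CPM in wild-type replicates 1, 2 and 3, with mutant replicate 1 highest. Hes6, a bHLH factor that promotes neuronal differentiation, was at 366, 246 and 369 CPM in mutant replicates 1, 2 and 3, against 294, 251 and 244 CPM in wild-type replicates 1, 2 and 3. Dll3 and Hes6 overlapped between the groups (unadjusted p = 0.137 and 0.138, edgeR). Tfap2c was at 32.8, 112 and 163 CPM in mutant replicates 1, 2 and 3, against 95.7, 87.9 and 51.7 CPM in wild-type replicates 1, 2 and 3, so that mutant replicate 1 and wild-type replicate 3 were lowest, as for Eomes and Sstr2.

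For the neighbouring cell states, 10 of 10 radial glia genes had fitted differences above 0 (median 0.64), 0 of 8 neuronal genes (median −0.88) and 7 of 8 cell division genes (median 0.23), with 0 past the test in each list. Unadjusted p (edgeR) was under 0.05 for 5 radial glia, 2 neuronal and 0 cell division genes, against 3.38% of all tested genes. With a library left out in turn, the radial glia count was 2 to 7 and the neuronal count 0 to 5. Groups did not overlap for 2 radial glia, 1 neuronal and 0 cell division genes, against 9.14% of all tested genes. Without mutant replicate 1 the medians were 0.40 for radial glia, −0.45 for neuronal and 0.43 for cell division genes. Wild-type replicate 3 was the lowest library for 8 of the 10 radial glia genes. Without both mutant replicate 1 and wild-type replicate 3 the radial glia median was 0.33, with 9 of 10 above 0. The neuronal median was then −0.46, with 1 of 8 above 0, and the cell division median 0.32, with 7 of 8. With a library left out in turn the cell division median ranged from −0.14 without mutant replicate 3 to 0.49 without wild-type replicate 2, with 0.088 and 0.11 without wild-type replicates 1 and 3. The members, at 5 of 8 and a median of 0.11, lay between the radial glia and neuronal lists. Mki67, a marker of dividing cells, was at 169, 263 and 419 CPM in mutant replicates 1, 2 and 3, against 284, 432 and 201 CPM in wild-type replicates 1, 2 and 3. Its highest libraries, wild-type replicate 2 and mutant replicate 3, were also the highest for Mxd3. Only 1 of 8 cell division genes was above 0 without mutant replicate 3, the library in which Insm1, Gadd45g, Mxd3 and Eomes were highest.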

How the data were processed

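The authors deposited one table of expected counts per gene with no depth scaling, which RSEM produced on mm10, per the submitters' processing notes. Aligner, annotation, strand setting and filters are not stated there, so overlapping genes on opposite strands cannot be separated. Per the labels' protocols, cDNA was amplified from picograms of RNA of GFP-sorted cells, so reads are not independent molecules. Groups and replicate numbers came from the sample titles.

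Expected counts were rounded, filtered with filterByExpr and scaled with TMM. All 14451 genes entered edgeR 4.0.16 (R 4.3.3), with a two-sided robust quasi-likelihood F-test on group alone. P-values were adjusted by Benjamini-Hochberg over these genes, at a threshold of 0.05. The common coefficient of biological variation came to 0.663. Tested on simulated data with the spread of this comparison, the steps recovered 9 of 197 genes changed 2-fold and 108 of 200 changed 4-fold. The library balances used a prior count of 2 and an exact permutation test. GENCODE M21 (GRCm38) gave coordinates and exon lengths by symbol.

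The members, gene lists and motifs were chosen with earlier results of these data known. The red blood cell list had 1 more gene, which is not reported here. Named genes were the members, Prpf6, Pax6, Tbr1, Mki67, the 4 of smallest unadjusted p among 12 other neurogenic genes, and the 3 genes most like Eomes; any other gene was named after its values were seen. Alternatives were DESeq2 1.42.0, DESeq2 size factors, no low-count filter, a prior count of 0.5, a replicate block and leaving out each library. A fit without both mutant replicate 1 and wild-type replicate 3 was chosen after seeing the data.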

Additional observations from a re-analysis of the deposited data

How the results depend on the processing

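Signs of the member differences followed single libraries. Without mutant replicate 1 the log2 difference was 0.40 for Eomes and 0.13 for Sstr2, and without wild-type replicate 1 it was 0.10 and 0.098, where both were below 0 with all libraries. Without mutant replicate 3 Insm1 (−0.20), Gadd45g (−0.027), Mxd3 (−0.16) and the balance of Eomes against Tbr1 (−0.12) turned, and without wild-type replicate 3 Insm1 did (−0.058). Leaving out 1 library in turn, Eomes ranged from −0.61 to 0.40, Sstr2 from −0.45 to 0.13, Insm1 from −0.20 to 0.24, Gadd45g from −0.027 to 0.49, Mxd3 from −0.16 to 0.43, and Eomes minus Tbr1 from −0.12 to 0.92. Without both mutant replicate 1 and wild-type replicate 3 Eomes was at 0.20. Mfap4, Rhbdl3 and Chd7 had the sign of the full fit in each of these fits. Genes whose groups do not overlap numbered 1321 with all libraries, 2446 to 3465 with 1 library fewer and 4282 with both left out, since smaller groups overlap less often by construction. DESeq2's Wald test called 6 genes where edgeR called 0, and 0 of them were members. It gave no adjusted p for 8695 genes, Mxd3 among them. DESeq2 size factors and no low-count filter turned no sign of a member. Same-numbered libraries did not deviate together (correlations across genes 0.054, 0.061 and −0.26), and the main fit did not take the numbers as pairs. Column names of the deposited counts carry matching numbers in both groups. Deviations from the mean of so few libraries depend on each other, so these correlations cannot decide whether libraries were paired. With the replicate block 0 genes and 0 members were called, with Eomes at −0.48 and a median over the members of 0.094. Each member had at least 1195 counts in every library. Reads of amplified cDNA are not independent molecules, and the number of molecules behind these counts was not tested.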
